A study of Yarrowia lipolytica with 35 samples.

Results

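The genes described here are the 40 protein-coding genes of Yarrowia lipolytica, of 6448 coding genes in the deposited tables (0.62%), whose RNA was higher at pH 3.5 than at pH 5.5 by a set margin in both strains and on both carbon sources. They were chosen from the deposited expression values themselves: in each of the 4 pairs of strain and carbon source, the mean log2 value of the pH 3.5 libraries at 32 h had to exceed that of the pH 5.5 libraries by 0.8 or more. The pH differences below therefore describe the choice and carry no test. The members are named by locus tag, since the files give none of them a gene symbol, and 39 of the 40 are shown. The converse set, lower at pH 3.5 by as much in all 4 pairs, held 47 coding genes.

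Yarrowia lipolytica is an oily, strictly aerobic yeast used to make organic acids and sugar alcohols from glycerol or glucose, and the pH of the culture is a main lever in those processes. Fungi sense ambient pH through the Pal/Rim pathway, in which membrane proteins signal to the zinc finger factor Rim101 (PacC in Aspergillus), a factor that is cleaved to its active form at neutral to alkaline pH. In Aspergillus the active factor turns on genes used at alkaline pH and turns off genes used at acid pH.

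RNA was sequenced from biomass of bioreactor cultures, in 35 libraries and 12 groups of 3 replicates, except for 1 group of 2. The strains were DSM-21175 and DSM-3286, about whose genotype the labels say no more, and each grew on glycerol or on glucose as the only carbon source. Sampling took place at 32 h, in the stationary phase under nitrogen limitation, at pH 3.5 (12 libraries) or pH 5.5 (11 libraries), and in the growth phase, only at pH 5.5 (12 libraries), at 8 h on glycerol and at 12 h on glucose. Carbon source and hour of sampling therefore cannot be told apart in the growth phase, and acid pH was not sampled in that phase. The submitters describe the replicates as biological triplicates.

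Libraries held 6.7 to 25.7 megareads (M) in genes, with a median of 14.38 M at pH 3.5, 11.91 M at pH 5.5 and 11.54 M in growth. Levels are given as FPKM (fragments per kilobase of gene and megafragment), undone from the deposited log2(FPKM + 1), and pH differences on that log2 scale, which understates the change of genes near 1 FPKM. Noncoding RNA took 0.0195 to 0.0647% of the reads at pH 3.5, against 0.0509 to 0.215% at pH 5.5; whether this share has a part in the results was not tested. In these bulk samples, fewer cells of a kind and less RNA per cell cannot be told apart. Earlier work on these data set 5 DSM-21175 libraries apart from their replicates: replicate 3 of glycerol at pH 3.5, of glycerol and of glucose at pH 5.5, and of glucose in growth, and replicate 2 of glycerol in growth. Results that rest on them are given with and without them.

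Together the 40 genes took 1.40 to 2.93% of a library's reads at pH 3.5 (median 1.84%), against 0.318 to 0.607% at pH 5.5 (median 0.431%) and 0.166 to 0.652% in growth (median 0.241%). Every pH 3.5 library thus gave them a larger share than any other library. The mean of a gene's 4 pH differences had a median of 1.69 over the members, was 2 or more in 13 of them and 3 or more in 3. In 29 members the difference was at least 1 in all 4 pairs, and in 4 members at least 2.

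The pairs differed in how far the members moved. The median difference over the members was 1.72 in DSM-21175 on glycerol and 1.37 in DSM-21175 on glucose, against 2.02 in DSM-3286 on glycerol and 1.89 in DSM-3286 on glucose. The same pairs had 220, 151, 847 and 513 coding genes at 0.8 or above, so DSM-21175 on glucose, with the fewest, set the limit most often: 19 members had their smallest difference there, and 19 had their largest in DSM-3286 on glycerol. On glycerol the difference was larger than on glucose in 26 members in DSM-21175 and in 27 members in DSM-3286. By the count model described below, 34.2% of all genes tested were called higher at pH 3.5 and 68.5% in either direction; all 40 members were, as their choice from the same libraries fixes.

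The libraries at pH 3.5 lay wholly above those at pH 5.5 of the same pair in 39 members in DSM-21175 on glycerol, against 17.3% of all coding genes, and in 35 members on glucose, against 19.7%. In DSM-3286 this held for all 40 on glycerol, against 36.4% of coding genes, and for all 40 on glucose, against 39.4%. In 34 members the libraries did not overlap in any pair, against 6.99% of coding genes. In 16 members every pH 3.5 library, whatever the strain and carbon source, was above every pH 5.5 library. The share of all coding genes for which this held was not counted. As these libraries chose the members, the counts describe the choice.

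The limit of 0.8 cut through a continuous range. The members nearest to it were YALI0B21362g, whose smallest difference was 0.82, YALI0C04411g with 0.82 and YALI0E34441g with 0.86. Just outside were YALI0A20570g with 0.79, YALI0E07964g with 0.79 and YALI0B02852g with 0.74.

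**Figure D1:**
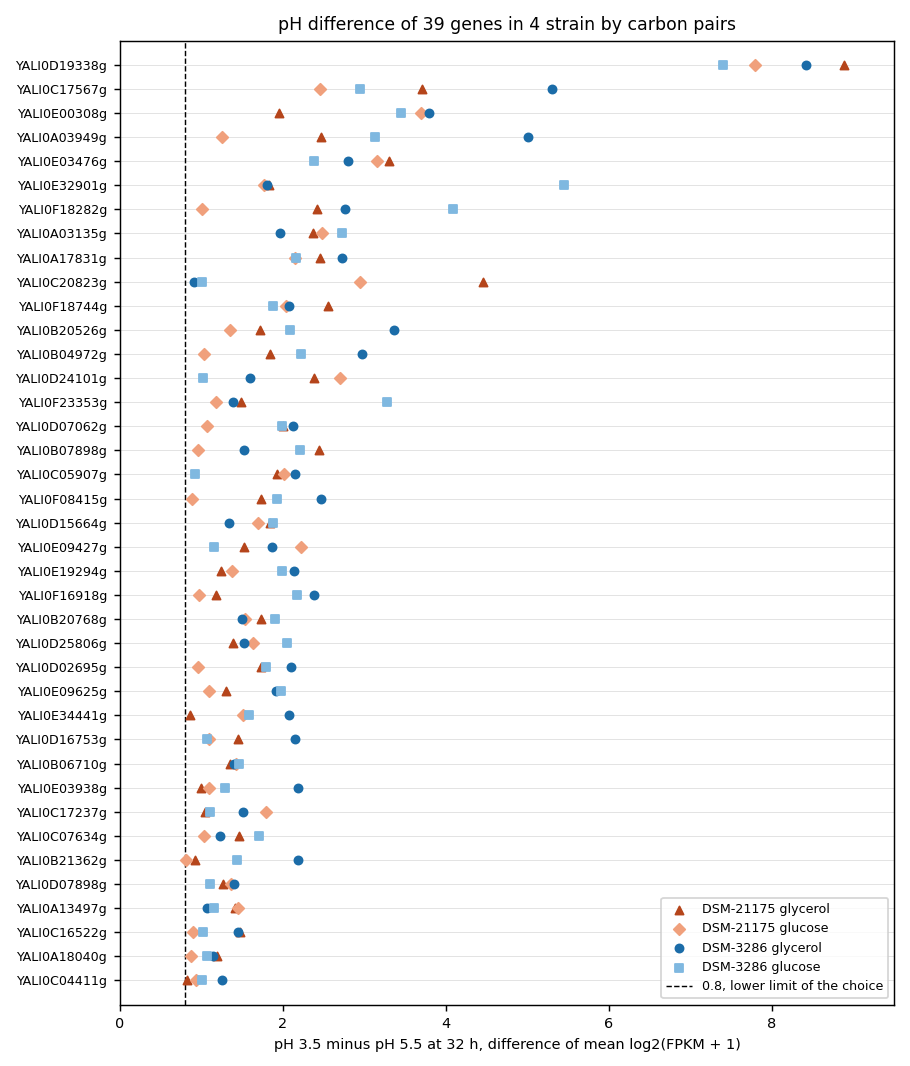
Difference of mean log2(FPKM + 1) between pH 3.5 and pH 5.5 at 32 h (horizontal axis) for 39 genes (rows, ordered by the mean of the 4 differences), with a marker for each pair of strain and carbon source and a dashed line at 0.8. YALI0D19338g lies apart at a mean of 8.12, and the others have means of 3.60 or less.

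YALI0D19338g stood apart from all other members. It is also the shortest of the 40, with 216 bases of coding length. In DSM-21175 it had 3326, 2936 and 4544 FPKM at pH 3.5, against 5.82, 6.84 and 6.94 FPKM at pH 5.5, on glycerol. On glucose that strain gave 3039, 4269 and 3125 FPKM at pH 3.5, against 20.7, 14.7 and 10 FPKM at pH 5.5. The libraries at pH 3.5 stood far above those at pH 5.5 on both carbon sources. DSM-3286 had 3742, 3768 and 4269 FPKM at pH 3.5, against 7.82, 11.7 and 12.5 FPKM at pH 5.5, on glycerol. Glucose cultures had 2090.0, 1964 and 2164 FPKM at pH 3.5, against 18.8 and 6.57 FPKM at pH 5.5. No library came between the levels at either pH in any pair. The log2 differences were 8.88 and 7.79 in DSM-21175 on glycerol and on glucose, and 8.41 and 7.40 in DSM-3286 on glycerol and on glucose. By mean level the gene ranked 30 among the 6448 coding genes at pH 3.5 and 5338 at pH 5.5.

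The next member by mean difference, YALI0C17567g, varied more between pairs. In DSM-21175 it had 1697, 1059 and 1697 FPKM at pH 3.5, against 74.6, 87.03 and 206 FPKM at pH 5.5, on glycerol. On glucose the strain had 1488, 1089 and 1379 FPKM at pH 3.5, against 217, 223 and 273 FPKM at pH 5.5. Replicate 3 at pH 5.5 on glycerol is 1 of the 5 set apart. DSM-3286 had 3190.5, 3349 and 2997 FPKM at pH 3.5, against 82.9, 72.01 and 85.2 FPKM at pH 5.5, on glycerol. Its glucose cultures had 656, 764 and 652 FPKM at pH 3.5, against 89.5 and 88.3 FPKM at pH 5.5. The pH 5.5 levels of DSM-3286 were alike on both carbon sources and the pH 3.5 levels were not, and the log2 differences were 3.71 and 2.46 in DSM-21175 on glycerol and on glucose, and 5.30 and 2.94 in DSM-3286 on glycerol and on glucose.

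YALI0E00308g was among the most abundant members at pH 3.5 and was low in growth. It had 1379, 1332 and 2573 FPKM at pH 3.5, against 467, 436 and 395 FPKM at pH 5.5, in DSM-21175 on glycerol. On glucose DSM-21175 gave 2061, 2225 and 1977 FPKM at pH 3.5, against 309.8, 346 and 37.9 FPKM at pH 5.5. The low value at pH 5.5 is that of replicate 3, a library set apart, and without the 5 such libraries the difference in that pair was 2.67 in place of 3.69. On glycerol the high value of 2573 FPKM is also that of a library set apart. Without the 5 the difference there was 1.585 in place of 1.96. DSM-3286 had 2149, 2209 and 2556 FPKM at pH 3.5, against 140.0, 143 and 223 FPKM at pH 5.5, on glycerol. With glucose the values were 1437, 1529.7 and 1417 FPKM at pH 3.5, against 159.9 and 109.7 FPKM at pH 5.5. All 12 pH 3.5 libraries of this gene were above all 11 pH 5.5 libraries.

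YALI0A03949g had a wide spread of differences, at 2.46 and 1.25 in DSM-21175 on glycerol and on glucose, and 5.01 and 3.13 in DSM-3286 on glycerol and on glucose. In DSM-21175 it had 47.8, 68.6 and 102 FPKM at pH 3.5, against 8.58, 11.1 and 17 FPKM at pH 5.5, on glycerol. On glucose the strain had 43.3, 41.2 and 37.6 FPKM at pH 3.5, against 16.4, 16.3 and 16.8 FPKM at pH 5.5. The spread came from the acid libraries, since the pH 5.5 levels of both strains lay in a narrower range. DSM-3286 had 351, 361 and 314 FPKM at pH 3.5, against 9.20, 10.1 and 9.70 FPKM at pH 5.5, on glycerol. On glucose it had 106, 115 and 78.9 FPKM at pH 3.5, against 11.5 and 9.41 FPKM at pH 5.5. No library of either pH overlapped with the other.

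YALI0E03476g moved by a like amount in both strains from unlike starting levels. DSM-21175 had 90.8, 81.1 and 185 FPKM at pH 3.5, against 9.63, 11.1 and 10.3 FPKM at pH 5.5, on glycerol. Glucose cultures had 214, 208 and 239.5 FPKM at pH 3.5, against 25.5, 27.2 and 19.4 FPKM at pH 5.5. In DSM-21175 the acid levels of the gene were near the pH 5.5 levels of the other strain. DSM-3286 had 988, 1016 and 825 FPKM at pH 3.5, against 142, 137 and 123 FPKM at pH 5.5, on glycerol. Its glucose cultures had 1066, 1023 and 1127 FPKM at pH 3.5, against 223 and 189 FPKM at pH 5.5. The differences were 3.30 and 3.16 in DSM-21175 on glycerol and on glucose, and 2.80 and 2.38 in DSM-3286 on glycerol and on glucose.

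YALI0A17831g was the most abundant member in DSM-3286 on either carbon source at pH 3.5. DSM-21175 had 652, 634 and 775 FPKM at pH 3.5, against 115, 113 and 146 FPKM at pH 5.5, on glycerol. On glucose that strain had 559, 571 and 552 FPKM at pH 3.5, against 129.7, 132 and 116 FPKM at pH 5.5. The acid level of DSM-21175 again came near the pH 5.5 level of DSM-3286. DSM-3286 had 4389, 3874 and 5077 FPKM at pH 3.5, against 634, 638 and 738 FPKM at pH 5.5, on glycerol. With glucose the values were 2997, 2915 and 2319 FPKM at pH 3.5, against 621 and 595 FPKM at pH 5.5. The log2 differences were 2.46 and 2.15 in DSM-21175 on glycerol and on glucose, and 2.72 and 2.16 in DSM-3286 on glycerol and on glucose.

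**Figure D2:**
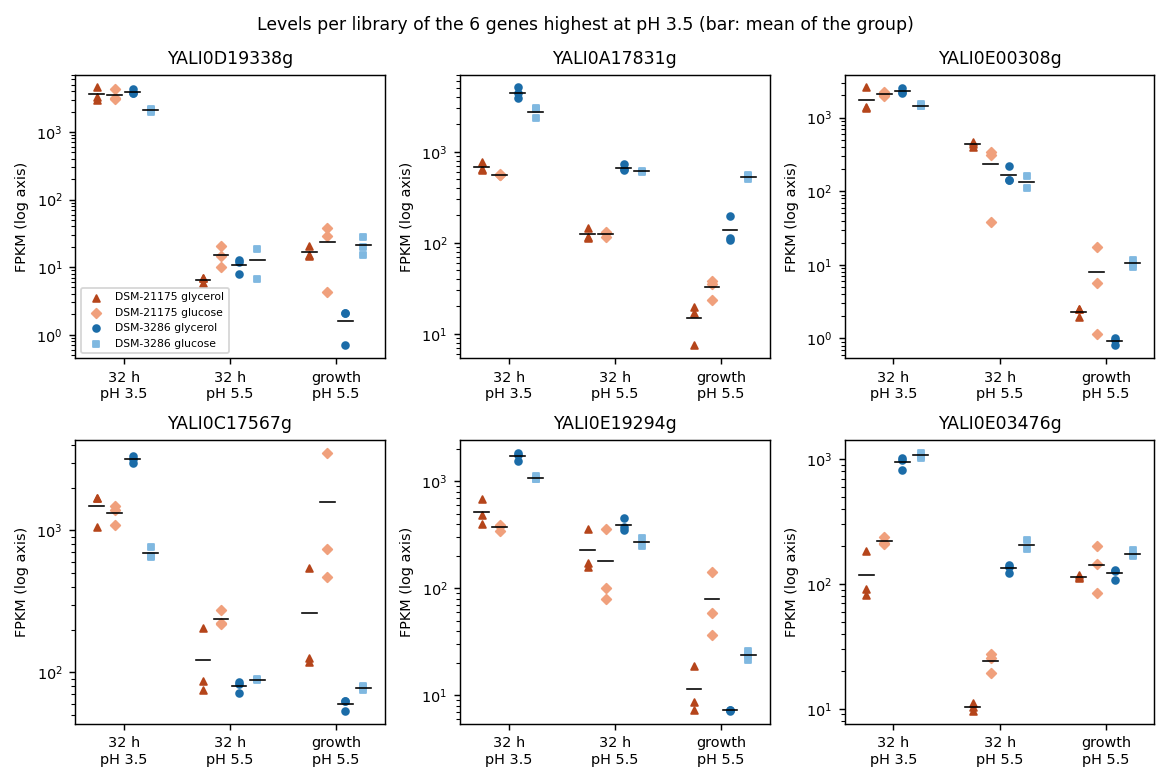
FPKM of each library on a log axis for the 6 members with the highest mean level at pH 3.5, at 32 h and pH 3.5, at 32 h and pH 5.5, and in growth at pH 5.5; markers give strain and carbon source, and bars the mean of a group. YALI0D19338g is at 1964 to 4544 FPKM in the pH 3.5 libraries and at 5.82 to 20.7 FPKM in the pH 5.5 libraries at 32 h.

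YALI0E19294g had log2 differences of 1.24 and 1.37 in DSM-21175 on glycerol and on glucose, and 2.13 and 1.99 in DSM-3286 on glycerol and on glucose. DSM-21175 had 483, 679 and 401 FPKM at pH 3.5, against 173, 159.9 and 356 FPKM at pH 5.5, on glycerol. On glucose it had 387, 389.7 and 342 FPKM at pH 3.5, against 79.4, 102 and 361 FPKM at pH 5.5. In this strain replicate 3 at pH 5.5 stood well above its replicates on both carbon sources, and on glucose the pH groups overlapped. DSM-3286 had 1858, 1757 and 1551 FPKM at pH 3.5, against 379, 349 and 454 FPKM at pH 5.5, on glycerol. Glucose cultures had 1059, 1135 and 1052 FPKM at pH 3.5, against 297 and 248 FPKM at pH 5.5. Without the 5 libraries set apart the differences in DSM-21175 were 1.78 on glycerol and 2.04 on glucose, so that those of DSM-3286 were no longer all larger.

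Some members moved mainly in 1 strain, or on 1 carbon source, and passed by less elsewhere. YALI0C20823g had 36.5, 42.4 and 22.4 FPKM at pH 3.5, against 0.404, 0.765 and 0.454 FPKM at pH 5.5, in DSM-21175 on glycerol, and 13.8, 14.2 and 9.13 FPKM against 0.693, 0.765 and 0.693 FPKM on glucose. In DSM-3286 the gene stayed low, with 2.36, 2.12 and 1.64 FPKM at pH 3.5, against 0.729, 0.474 and 0.636 FPKM at pH 5.5, on glycerol, and 1.55, 1.22 and 2.03 FPKM against 0.320 and 0.248 FPKM on glucose. Its differences were 4.46 and 2.94 in DSM-21175 on glycerol and on glucose, and 0.91 and 1.01 in DSM-3286 on glycerol and on glucose, and at levels this low the log2(FPKM + 1) scale understates them: from log2 CPM (counts scaled to library size) the mean over the pairs was 3.46, in place of 2.33.

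YALI0E32901g showed the reverse kind of pattern, with a large difference in DSM-3286 on glucose. It had 123, 131 and 138 FPKM at pH 3.5, against 2.84 and 1.35 FPKM at pH 5.5, in that pair, and 8.58, 14.3 and 9.56 FPKM against 2.51, 2.73 and 1.77 FPKM in DSM-3286 on glycerol. In DSM-21175 it had 8.99, 10.7 and 5.87 FPKM at pH 3.5, against 1.71, 2.86 and 0.693 FPKM at pH 5.5, on glycerol. On glucose DSM-21175 gave 28.4, 28.7 and 20.4 FPKM at pH 3.5, against 0.828, 1.57 and 100.1 FPKM at pH 5.5. The single high pH 5.5 value comes from a library set apart; without the 5 such libraries the difference in that pair was 3.61 in place of 1.77.

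YALI0F18282g also had its largest difference in DSM-3286 on glucose, at 4.08, with 83.4, 61.7 and 69.03 FPKM at pH 3.5, against 4.31 and 2.39 FPKM at pH 5.5. Its other pairs gave 2.41 in DSM-21175 on glycerol, 1.01 in DSM-21175 on glucose and 2.76 in DSM-3286 on glycerol. Over all libraries it ranged over 10.9 to 121 FPKM (median 53.9) at pH 3.5, against 2.39 to 15.7 FPKM (median 6.26) at pH 5.5.

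YALI0A03135g and YALI0F18744g had differences of 1.87 to 2.73 in all pairs. YALI0A03135g ranged over 25.4 to 216 FPKM (median 67.2) at pH 3.5, against 3.63 to 54.3 FPKM (median 6.06) at pH 5.5, with differences of 2.36 and 2.48 in DSM-21175 on glycerol and on glucose, and 1.97 and 2.73 in DSM-3286 on glycerol and on glucose. YALI0F18744g ranged over 37.9 to 145 FPKM (median 64.2) at pH 3.5, against 5.36 to 32.4 FPKM (median 14.7) at pH 5.5, with differences of 2.55 and 2.03 in DSM-21175 on glycerol and on glucose, and 2.08 and 1.87 in DSM-3286 on glycerol and on glucose. YALI0B20526g, at 6.11 to 40.4 FPKM (median 22.8) at pH 3.5 against 0.613 to 7.88 FPKM (median 3.35) at pH 5.5, moved more in DSM-3286, with differences of 1.71 and 1.35 in DSM-21175 on glycerol and on glucose, and 3.36 and 2.09 in DSM-3286 on glycerol and on glucose. The levels of YALI0A03135g overlapped between the pH values only across strains, never within a pair.

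The most even member was YALI0B06710g. DSM-21175 had 22.6, 23.9 and 19.5 FPKM at pH 3.5, against 7.46, 7.17 and 9.41 FPKM at pH 5.5, on glycerol, and 20.4, 21.01 and 23.4 FPKM against 5.82, 7.46 and 9.27 FPKM on glucose. DSM-3286 had 21.8, 20.9 and 22.4 FPKM at pH 3.5, against 10, 5.82 and 7.46 FPKM at pH 5.5, on glycerol, and 21.2, 21.6 and 21.2 FPKM against 6.84 and 7.40 FPKM on glucose. Its levels were alike in all 4 pairs, and its differences were 1.36 and 1.43 in DSM-21175 on glycerol and on glucose, and 1.40 and 1.46 in DSM-3286 on glycerol and on glucose. YALI0D07898g and YALI0A18040g had the next smallest spreads, of 0.30 and 0.31, but these rest on the libraries set apart: without the 5 they were 0.92 and 0.79, and that of YALI0B06710g was 0.17. YALI0D07898g was at unlike levels in the 2 strains, with 32.4, 34.02 and 34.8 FPKM at pH 3.5, against 14.03, 13.6 and 10.2 FPKM at pH 5.5, in DSM-21175 on glucose, and 616, 563 and 643 FPKM against 308 and 259 FPKM in DSM-3286 on glucose.

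The spread between the groups was wider at acid pH. The range of a member's 4 group means at pH 3.5 had a median of 2.41 on the log2 scale, against 1.69 at pH 5.5, and 16 of the 40 had the narrower range at pH 3.5. Over all coding genes the medians were 0.697 at pH 3.5 and 0.745 at pH 5.5, and 55.5% had the narrower range at pH 3.5. The choice used the differences between these same group means, so the ranges are a description and were not tested.

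In most of the overlaps between pH values within a pair, the library out of order was 1 of those set apart. In DSM-21175 on glucose replicate 3 at pH 5.5 was above at least 1 pH 3.5 library for YALI0E19294g, YALI0E32901g, YALI0F23353g and YALI0F08415g. YALI0F23353g had 7.94, 12.1 and 9.56 FPKM at pH 3.5, against 1.43, 1.58 and 15.9 FPKM at pH 5.5, in that pair. YALI0F08415g had 138, 104 and 118 FPKM at pH 3.5, against 44.6, 52.8 and 113 FPKM at pH 5.5. YALI0C07634g differs in that the low library was replicate 3 at pH 3.5: it had 5.45, 10.7 and 2.56 FPKM at pH 3.5, against 1.66, 4.21 and 1.27 FPKM at pH 5.5. On glycerol only YALI0D07898g overlapped, with 88.3, 79.4 and 41.8 FPKM at pH 3.5, against 18.3, 21.5 and 50.3 FPKM at pH 5.5, where replicate 3 at either pH is among those set apart.

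Leaving out the 5 libraries changed which genes met the rule but not how many. Again 40 did, of which 34 were among the members; YALI0A18040g, YALI0B04972g, YALI0B21362g, YALI0C07634g, YALI0D25806g and YALI0E34441g no longer reached 0.8 in every pair. The weakest of these, YALI0A18040g, then had a difference of 0.35 in DSM-21175 on glucose, and the other 5 had a smallest difference of 0.66 to 0.795. For YALI0D25806g the value on glycerol in DSM-21175 was 0.795 without those libraries, in place of 1.39. The genes that came in were YALI0A10747g, YALI0B02024g, YALI0D09889g, YALI0E06589g, YALI0E22396g and YALI0F25553g.

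The rest of the members covered a wide range of abundance. Over all 40, the mean level at pH 3.5 exceeded 100 FPKM in 19 and was below 10 FPKM in none, and the median of a member's mean log2 level over all 35 libraries was 4.94, against 5.19 over all coding genes. Among those not described so far, YALI0D15664g had 260.4 to 837 FPKM (median 524) at pH 3.5, against 86.4 to 321 FPKM (median 145) at pH 5.5. YALI0C05907g, at 90.8 to 166 FPKM (median 124) at pH 3.5 and 23.9 to 51.3 FPKM (median 36.5) at pH 5.5, was higher at pH 3.5 by about as much in all pairs but DSM-3286 on glucose. YALI0E09427g ran at 22.1 to 53.2 FPKM (median 33.1) at pH 3.5, against 6.89 to 15.3 FPKM (median 9.27) at pH 5.5. In none of these did a pH 3.5 library fall below a pH 5.5 library of the same pair.

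The growth phase, sampled only at pH 5.5, was not used in the choice, but any contrast with the 32 h libraries shares them, so the following positions are a description. Judged by the mean of the 4 group means of log2(FPKM + 1), 21 of the 40 members were lower in growth than at either pH at 32 h, 13 lay between the levels at both pH values, and 6 were above both. Over all coding genes these classes held 43.5, 14.6 and 41.9%. In all 4 pairs, 15 members were below both, 3 between and 3 above both, against 26.3, 1.63 and 24.6% of coding genes. The pH 3.5 level exceeded the growth level by a median of 1.92 over the members and was higher in 34 of them, against a median of 0 and 49.9% of coding genes. The pH 5.5 level at 32 h exceeded the growth level by a median of 0.25 and was higher in 21 members, against a median of 0.03 and 51.2% of coding genes. The count of 21 was thus near the share of all coding genes.

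Members that were low in growth included some of the most abundant at pH 3.5. YALI0E00308g was at 0.803 to 17.3 FPKM (median 2.51) in growth and YALI0E19294g at 7.17 to 141 FPKM (median 20.1), with group means below those of 32 h at either pH in every pair. For YALI0E19294g the libraries overlapped in DSM-21175 on glucose, with 79.4, 102 and 361 FPKM at 32 h and pH 5.5, against 59.1, 37.1 and 141 FPKM in growth, where replicate 3 of both is among those set apart. YALI0F18744g was at 0.125 to 3.11 FPKM (median 0.895) in growth and YALI0A03135g at 0.548 to 3.35 FPKM (median 1.49). Each of these was therefore higher at 32 h than in growth at pH 5.5 too, and higher again at pH 3.5. The faintest members in growth were YALI0C16522g, with at most 9 reads in any growth library and 0 in 5 of the 12, and YALI0B07898g, with at most 10 reads and 0 in 2 of the 12.

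YALI0D19338g took a different course. It was at 0.693 to 37.6 FPKM (median 15.2) in growth, a range that holds the levels at 32 h and pH 5.5, so that of the 3 conditions the pH 3.5 libraries alone were high. YALI0C17567g, YALI0E32901g, YALI0C20823g and YALI0E03476g also lay between on the mean. For YALI0E03476g in DSM-21175 on glycerol the growth libraries had 113, 112 and 118 FPKM, not below the pH 3.5 libraries of 32 h except the highest of them. In that pair the gene was lower at 32 h and pH 5.5 than in either other condition.

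In a few members the growth level was the highest of the 3 conditions. YALI0F18282g had 28.04 to 314 FPKM (median 211) in growth, and its mean growth level was above both 32 h levels in every pair, as was that of YALI0B21362g. YALI0B21362g had 48.5 to 74.6 FPKM (median 59.4) at 32 h and pH 3.5, against 57.9 to 162 FPKM (median 86.2) in growth. YALI0C07634g was above both in 3 of the 4 pairs. On the mean of log2 values YALI0F23353g and YALI0D25806g were above both as well, but YALI0F23353g was so only in DSM-21175, and YALI0D25806g only in DSM-21175 on glycerol. By mean FPKM both were higher at pH 3.5, with 159 FPKM at pH 3.5, against 96.5 FPKM in growth, for YALI0F23353g, and 35.2 FPKM at pH 3.5, against 32.1 FPKM in growth, for YALI0D25806g. In DSM-21175 on glycerol YALI0F23353g had 2.68, 3.47 and 2.03 FPKM at 32 h and pH 3.5 and 0.474, 0.464 and 0.0570 FPKM at 32 h and pH 5.5, against 65.7, 81.1 and 48.2 FPKM in growth. In DSM-3286 on glycerol the order was the opposite, with 146, 139 and 153 FPKM at 32 h and pH 3.5 and 72.5, 48.5 and 47.8 FPKM at 32 h and pH 5.5, against 50.6, 39.8 and 43.9 FPKM in growth.

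**Figure D3:**
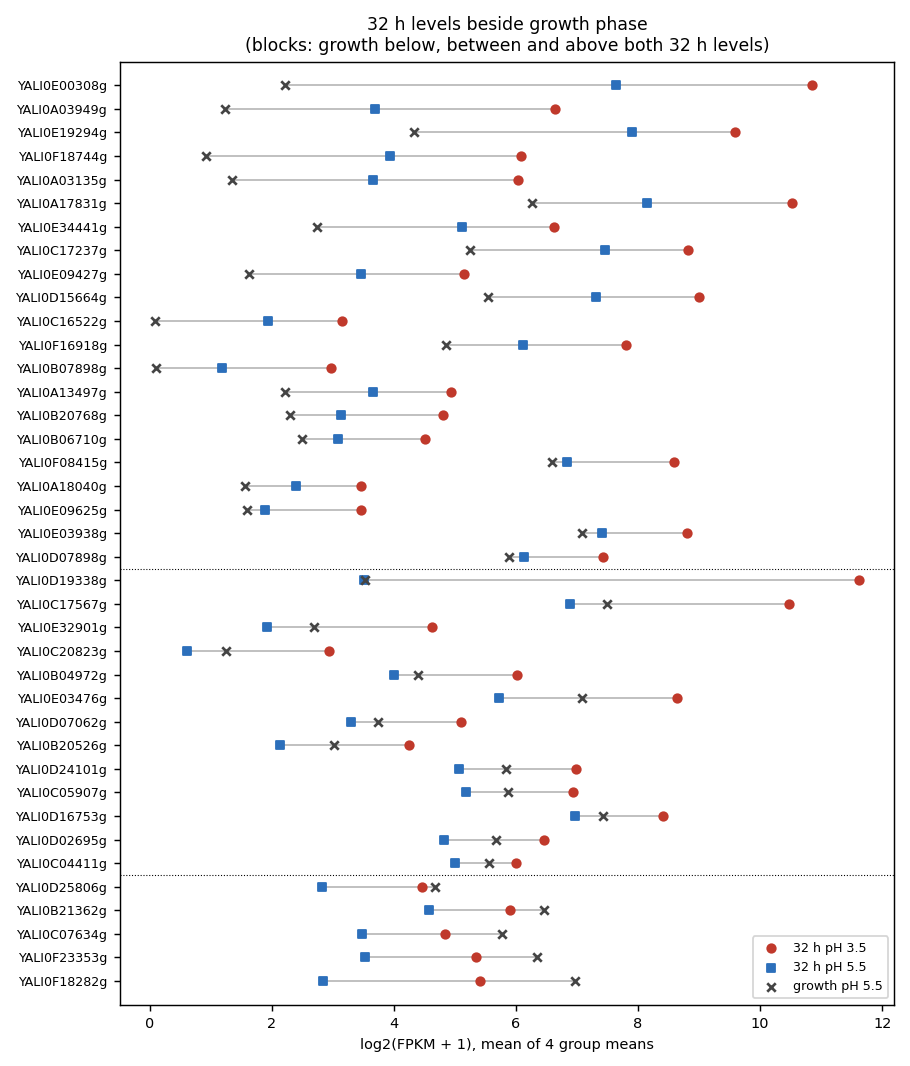
Mean log2(FPKM + 1) over the 4 pairs (horizontal axis) of 39 genes (rows) at 32 h and pH 3.5 (circles), at 32 h and pH 5.5 (squares) and in growth at pH 5.5 (crosses), in blocks by whether growth is below, between or above both 32 h levels. In the top block of 21 genes the crosses lie left of both other markers, and the bottom block, where they lie to the right, is small.

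The effects of carbon source and strain in the growth phase use none of the libraries that chose the members, and those at 32 h use them in sums where pH is balanced. They were tested with edgeR's quasi-likelihood model on the deposited counts, fitted to all 35 libraries, with p-values adjusted by Benjamini-Hochberg over 6537 genes and called below 0.05. All 40 members passed the filter on low counts. As pH differences were larger in some pairs than in others, 32 h values average both pH values. Such averages still hold part of the unequal pH differences, so the 32 h tests are not independent of the choice.

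In the growth phase the members were mostly lower on glycerol than on glucose. Of the 40, 25 were called lower (62.5%), against 30.7% of all genes tested, and 3 were called higher (7.5%), against 31.8% of all genes; 12 did not pass. The median log2 fold change, glycerol over glucose, was -0.80 over the members and -0.01 over all genes. The glycerol cultures were sampled at 8 h and the glucose cultures at 12 h.

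YALI0E32901g fell most with all libraries, with 0.395 to 7.06 FPKM (median 2.82) on glycerol, against 4.66 to 68.1 FPKM (median 7.82) on glucose, and a log2 fold change of -2.81 ± 0.84 (SE, edgeR adjusted p = 0.00539). Its highest value, 68.1 FPKM, is that of a library set apart, and the other 11 libraries ran up to 13.5 FPKM. Without the 5 libraries set apart its log2 fold change was -2.03, against -2.90 for YALI0E00308g, -2.33 for YALI0D19338g and -2.12 for YALI0E19294g. YALI0E00308g fell with 0.803 to 2.51 FPKM (median 1.48) on glycerol, against 1.16 to 17.3 FPKM (median 9.83) on glucose, a change of -2.58 ± 0.48 (SE, edgeR adjusted p = 5.23e-05). The groups overlapped only through the third glucose library of DSM-21175, at 1.16 FPKM. YALI0E19294g did not overlap, at 7.17 to 18.7 FPKM (median 7.31) on glycerol and 21.5 to 141 FPKM (median 31.6) on glucose, and fell by a log2 fold change of -2.17 ± 0.34 (SE, edgeR adjusted p = 4.71e-06).

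For YALI0D19338g the fall on glycerol differed between strains. In DSM-21175 the growth libraries had 14.5, 20.7 and 15.2 FPKM on glycerol, against 37.6, 28.9 and 4.28 FPKM on glucose. DSM-3286 had 0.693, 2.07 and 2.10 FPKM on glycerol, against 15.2, 20.1 and 27.6 FPKM on glucose. The groups stood apart in DSM-3286 and overlapped in DSM-21175, where replicate 2 on glycerol and replicate 3 on glucose are among the libraries set apart. Without them the DSM-21175 groups stood apart too. Over both strains the log2 fold change was -1.97 ± 0.38 (SE, edgeR adjusted p = 7.03e-05), made of -0.43 ± 0.43 in DSM-21175 and -3.51 ± 0.61 in DSM-3286 (SE). The difference between strains was 3.08 ± 0.77 (SE, edgeR adjusted p = 0.00932). Without the libraries set apart the log2 fold change was -1.13 ± 0.35 in DSM-21175 and -3.53 ± 0.43 in DSM-3286 (SE), with a difference of 2.41 (edgeR adjusted p = 0.00711).

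The members higher on glycerol in growth included YALI0D07062g and YALI0D25806g. YALI0D07062g had 13.4 to 37.1 FPKM (median 23.1) on glycerol, against 4.06 to 10 FPKM (median 6.21) on glucose, without overlap, and a log2 fold change of 1.80 ± 0.13 (SE, edgeR adjusted p = 2.3e-12). YALI0D25806g had 19.7, 17.8 and 27.1 FPKM on glycerol, against 7.11, 8.32 and 4.54 FPKM on glucose, in DSM-21175. In DSM-3286 it had 57.9, 44.9 and 45.9 FPKM on glycerol, against 50.98, 49.2 and 51.3 FPKM on glucose. Its rise was 0.89 ± 0.21 (SE, edgeR adjusted p = 0.000549), and only DSM-21175 showed the groups apart.

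Between strains in growth the members went both ways. In DSM-21175 relative to DSM-3286, 12 were called higher (30%), against 34.3% of all genes, 15 lower (37.5%), against 30.5%, and 13 did not pass. The median log2 fold change was -0.25 over the members and 0.03 over all genes. Both shares were near those of all genes.

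YALI0A17831g was lower in DSM-21175, with 7.46 to 38.1 FPKM (median 21.7), against 107 to 552 FPKM (median 352) in DSM-3286, and a log2 fold change of -3.68 ± 0.17 (SE, edgeR adjusted p = 3.22e-16). The strains did not overlap. YALI0D07898g fell by a log2 fold change of -2.81 ± 0.19 (SE, edgeR adjusted p = 1.98e-12), at 14.3 to 27.1 FPKM (median 23.4) in DSM-21175 and 98.7 to 216 FPKM (median 157) in DSM-3286. YALI0D24101g fell by -2.21 ± 0.17 (SE, edgeR adjusted p = 1.83e-11), at 21.2 to 34.3 FPKM (median 26.05) in DSM-21175 and 112 to 124 FPKM (median 119) in DSM-3286. Neither overlapped between strains. YALI0C16522g was called lower too, but on 3 reads in all over the 6 DSM-21175 libraries, against 21 reads over the 6 DSM-3286 libraries; the call was lost with limma on the log2 values (adjusted p = 0.475) and without the 5 libraries set apart (edgeR adjusted p = 0.0666). It was also lost without replicate 1 of DSM-3286 on glucose (edgeR adjusted p = 0.0679) and without replicate 3 of DSM-3286 on glycerol (edgeR adjusted p = 0.218).

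Those higher in DSM-21175 in growth included YALI0C17567g. It had 118, 544 and 125 FPKM in DSM-21175, against 62.6, 53.6 and 63 FPKM in DSM-3286, on glycerol. Its glucose cultures had 738, 470.1 and 3516 FPKM in DSM-21175, against 74.6, 80.6 and 78.9 FPKM in DSM-3286. The strains did not overlap, though the high values of DSM-21175 on both carbon sources are those of libraries set apart. The log2 fold change was 3.21 ± 0.41 (SE, edgeR adjusted p = 2.93e-07), and 1.96 without those libraries (edgeR adjusted p = 8.65e-14).

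YALI0A03949g had 2.43 to 3.56 FPKM (median 3.08) in DSM-21175, against 0.231 to 0.647 FPKM (median 0.320) in DSM-3286, a log2 fold change of 2.998 ± 0.22 (SE, edgeR adjusted p = 4.95e-12). These growth levels are low in both strains, and the log2(FPKM + 1) values gave a difference of 1.56. YALI0E32901g rose with 2.57 ± 0.84 (SE, edgeR adjusted p = 0.00993). Without replicate 3 of DSM-21175 on glucose its value was 1.73 and no longer passed (edgeR adjusted p = 0.0724); without all 5 libraries set apart, of which that is 1, it was 1.70 and passed (edgeR adjusted p = 5.75e-05). YALI0D19338g was higher in DSM-21175 by 1.69 ± 0.38 (SE, edgeR adjusted p = 0.000434), with 4.28 to 37.6 FPKM (median 17.96) in DSM-21175 and 0.693 to 27.6 FPKM (median 8.66) in DSM-3286, which overlapped. This average was made of 3.23 ± 0.63 on glycerol and 0.15 ± 0.41 on glucose (SE), where the DSM-21175 library at 4.28 FPKM is 1 of those set apart.

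At 32 h members were called in both directions between carbon sources, and the share called lower was near that of all genes. Of the 40, 13 were called higher on glycerol than on glucose (32.5%), against 22.2% of all genes, 8 were called lower (20%), against 21.0%, and 19 did not pass; 43.2% of all genes passed in either direction. The median log2 fold change was 0.14 over the members and 0.01 over all genes. Falls prevailed in the growth phase and not at 32 h.

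YALI0B07898g was the member with the largest rise on glycerol. At pH 3.5 it had 3.86, 4.62 and 12.1 FPKM on glycerol, against 0.905, 1.43 and 1.35 FPKM on glucose, in DSM-21175. In DSM-3286 it had 24.6, 25.9 and 46.8 FPKM on glycerol, against 6.01, 6.52 and 6.41 FPKM on glucose. The groups did not overlap in either strain. At pH 5.5 DSM-3286 had 12.7, 7.22 and 11.3 FPKM on glycerol, against 0.790 and 0.385 FPKM on glucose. DSM-21175 had 0.292, 0.189 and 0.464 FPKM on glycerol, against 0.0353, 0.181 and 0.214 FPKM on glucose, levels of few reads that did overlap. Over all 4 strata the log2 fold change was 2.54 ± 0.27 (SE, edgeR adjusted p = 2.19e-08).

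YALI0D07062g was higher on glycerol at 32 h as it was in growth, by 1.31 ± 0.10 (SE, edgeR adjusted p = 9.17e-12). At pH 3.5 it had 36.5, 24.5 and 26.1 FPKM on glycerol, against 8, 8.92 and 6.26 FPKM on glucose, in DSM-21175. In DSM-3286 it had 108, 110.4 and 108 FPKM on glycerol, against 45.9, 48.2 and 47.5 FPKM on glucose. The carbon sources did not overlap in these strata, and the same held at pH 5.5. YALI0C07634g and YALI0C17237g rose on glycerol by 1.30 ± 0.29 (SE, edgeR adjusted p = 0.000851) and 0.91 ± 0.25 (SE, edgeR adjusted p = 0.00473).

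Among the members lower on glycerol at 32 h were YALI0E32901g, with -2.31 ± 0.57 (SE, edgeR adjusted p = 0.00207), and YALI0F23353g, with -1.88 ± 0.30 (SE, edgeR adjusted p = 1.67e-05). YALI0E32901g had 0.693 to 14.3 FPKM (median 4.37) on glycerol, against 0.828 to 138 FPKM (median 28.4) on glucose. Without replicate 3 of DSM-21175 on glucose at pH 5.5 its log2 fold change was -1.12, and without all 5 libraries set apart it was -0.97 and that of YALI0F23353g -1.21, all still called. YALI0B20526g fell on glycerol by a log2 fold change of -0.77 ± 0.14 (SE, edgeR adjusted p = 5.69e-05) and YALI0E03476g by -0.71 ± 0.12 (SE, edgeR adjusted p = 1.89e-05). YALI0E03476g had 9.63 to 11.1 FPKM on glycerol at pH 5.5 in DSM-21175, against 19.4 to 27.2 FPKM on glucose, without overlap. In DSM-3286 at pH 3.5 its log2 fold change was only -0.14 ± 0.23 (SE). The other 3 genes each fell in 3 of the 4 strata. The remaining stratum was DSM-3286 at pH 5.5 for YALI0E32901g, with 0.16 ± 1.43, and for YALI0F23353g, with 0.21 ± 0.49 (SE). For YALI0B20526g it was DSM-3286 at pH 3.5, with 0.20 ± 0.24 (SE).

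Between strains at 32 h the members were mostly lower in DSM-21175. Of the 40, 26 were called lower (65%), against 37.6% of all genes, 4 were called higher (10%), against 43.0%, and 10 did not pass. The median log2 fold change was -0.97 over the members and 0.04 over all genes. Most genes of any kind were called between the strains at 32 h, at 80.6% of those tested. The pH difference was larger in DSM-3286 than in DSM-21175 in 25 members on glycerol and in 28 on glucose, and the 32 h averages include it. YALI0A03949g was called lower, by -0.62 ± 0.11 (SE, edgeR adjusted p = 6.66e-06). Its strain differences were -2.22 and -1.25 on glycerol and on glucose at pH 3.5, but 0.33 and 0.64 at pH 5.5.

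YALI0C16522g and YALI0F23353g had the largest falls. At pH 3.5 it had 1.71, 1.41 and 2.63 FPKM in DSM-21175, against 25.9, 29.7 and 30.6 FPKM in DSM-3286, on glycerol. With glucose the values were 1.95, 0.705 and 1.497 FPKM in DSM-21175, against 31.2, 33.1 and 26.5 FPKM in DSM-3286. At pH 5.5 no DSM-21175 library exceeded 0.404 FPKM and no DSM-3286 library was below 6.73 FPKM, so that the strains never overlapped. The log2 fold change was -5.55 ± 0.22 (SE, edgeR adjusted p = 3.54e-18) from counts and -3.53 on the log2(FPKM + 1) scale.

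The log2 fold change of YALI0F23353g was -5.41 ± 0.29 (SE, edgeR adjusted p = 8.18e-15), at 0.0570 to 15.9 FPKM (median 2.36) in DSM-21175 and 45.2 to 507 FPKM (median 139) in DSM-3286. In growth its strain difference was -0.54 ± 0.30 (SE, edgeR adjusted p = 0.122), which did not pass. Without the 5 libraries set apart the 32 h strain differences of these 2 genes were -5.80 for YALI0F23353g and -5.68 for YALI0C16522g. YALI0A13497g fell by -4.20 ± 0.23 (SE, edgeR adjusted p = 1.28e-15), at 1.11 to 11.04 FPKM (median 4.44) in DSM-21175 and 37.3 to 140.0 FPKM (median 87.6) in DSM-3286. YALI0B20768g fell by -3.83 ± 0.15 (SE, edgeR adjusted p = 9.62e-19), at 1.01 to 8.85 FPKM (median 4.08) in DSM-21175 and 24.3 to 102 FPKM (median 85.8) in DSM-3286. In each of YALI0F23353g, YALI0A13497g and YALI0B20768g every DSM-21175 library was below every DSM-3286 library, over both pH values. The acid level of DSM-21175 was therefore below the pH 5.5 level of DSM-3286, although both strains had the higher level at pH 3.5.

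The 4 members higher in DSM-21175 at 32 h were YALI0C20823g, YALI0C17237g, YALI0B21362g and YALI0E03938g. YALI0C20823g rose by 2.05 ± 0.15 (SE, edgeR adjusted p = 6.48e-13). Its strain differences were 4.07 ± 0.25 on glycerol and 2.97 ± 0.25 on glucose at pH 3.5 (SE). At pH 5.5 they were -0.16 ± 0.34 on glycerol and 1.31 ± 0.39 on glucose (SE), so the average holds much of the unequal pH difference. Its pH 5.5 levels, given above, were under 1 FPKM in every library of both strains. YALI0C17237g rose by 1.48 ± 0.25 (SE, edgeR adjusted p = 1.04e-05), with 1350.2, 808 and 922 FPKM in DSM-21175, against 339, 309.8 and 412 FPKM in DSM-3286, on glycerol at pH 3.5. YALI0B21362g and YALI0E03938g rose by 0.48 ± 0.11 (SE, edgeR adjusted p = 0.000193) and 0.42 ± 0.12 (SE, edgeR adjusted p = 0.00187), each in 3 of the 4 strata. On glycerol at pH 3.5 the values were -0.25 ± 0.20 for YALI0B21362g and -0.60 ± 0.22 for YALI0E03938g (SE). YALI0D19338g had a strain difference of 0.04 ± 0.22 (SE, edgeR adjusted p = 0.872) at 32 h, which did not pass.

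**Figure D4:**
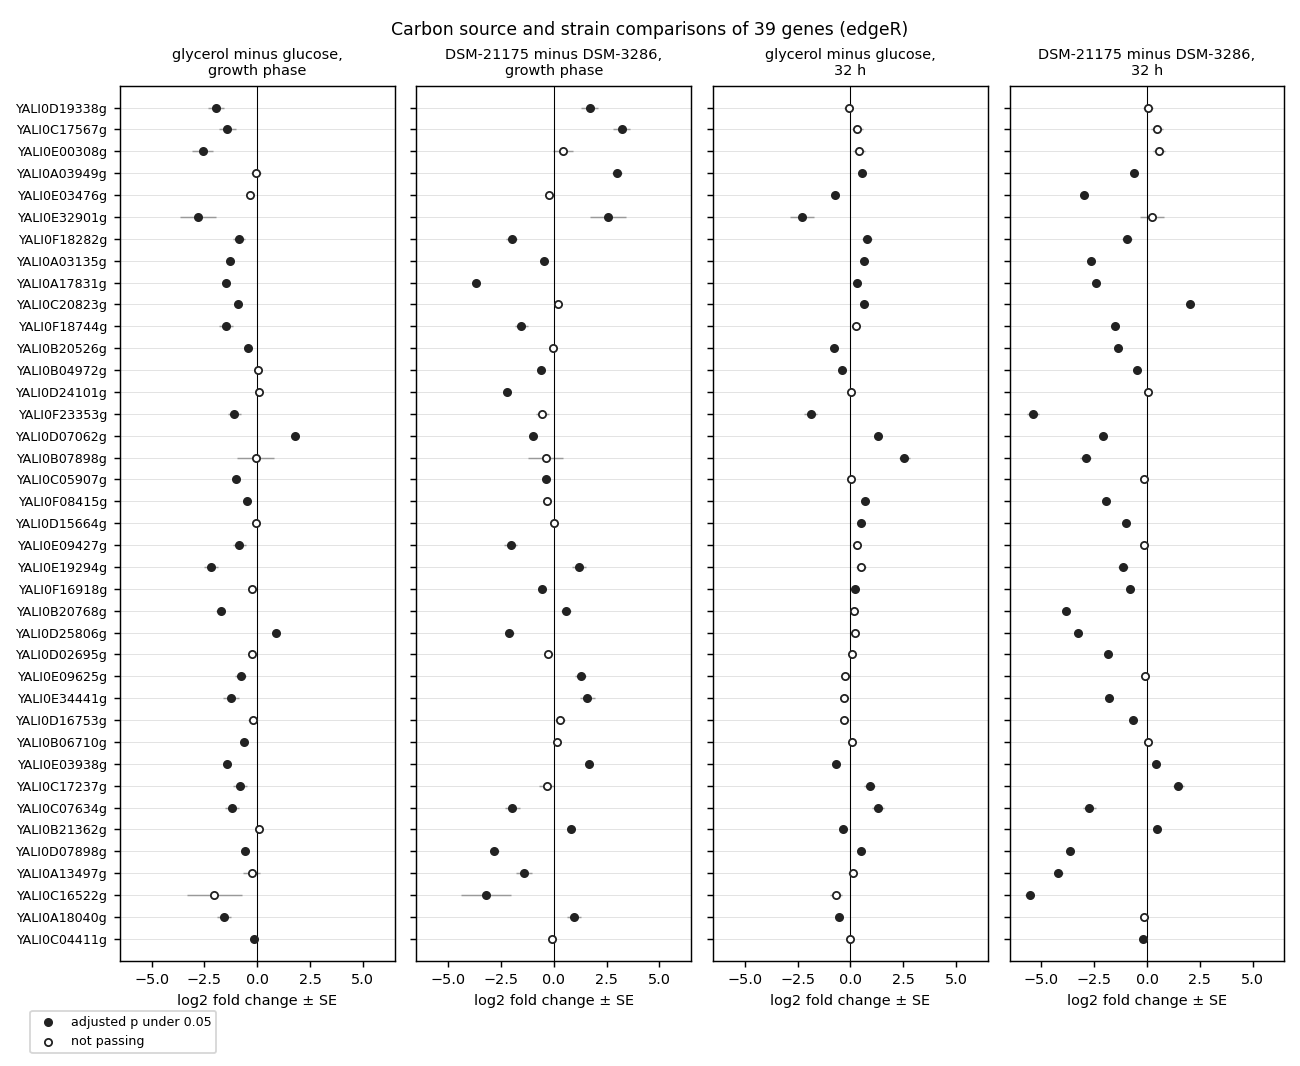
Log2 fold change with its standard error (horizontal axes, from edgeR) of 39 genes (rows, ordered by mean pH difference) for glycerol over glucose and for DSM-21175 over DSM-3286, in growth and at 32 h; filled points passed an adjusted p of 0.05. Filled points lie mostly left of 0 in growth for carbon source and at 32 h for strain.

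The change with carbon source could itself differ between the strains, which was tested as an interaction (DSM-21175 minus DSM-3286) added after the data were seen. In growth 7 members were called (9.82% of all genes), 5 of them with a positive difference (6.16% of all genes) and 2 with a negative one (3.66%). At 32 h 12 were called (31.1% of all genes), 11 of them with a negative difference (15.5% of all genes) and 1, YALI0D07898g, with a positive one (15.6%). Without the 5 libraries set apart 8 positive and 5 negative ones were called in growth, and 3 positive ones at 32 h. In growth YALI0A13497g had a difference of 3.36 ± 0.79 (SE, edgeR adjusted p = 0.00492). It had 2.78, 1.27 and 7.46 FPKM on glycerol, against 2.46, 1.58 and 0.141 FPKM on glucose, in DSM-21175, and 2.18, 4.502 and 2.48 FPKM against 13.2, 12.2 and 10.2 FPKM in DSM-3286. The lowest DSM-21175 value on each carbon source is that of a library set apart; without the 5 the difference was 3.36 (edgeR adjusted p = 0.00198), made of 1.37 ± 0.63 in DSM-21175 and -1.99 ± 0.39 in DSM-3286 (SE), and without replicate 3 of DSM-21175 on glycerol it was 2.47 and did not pass (edgeR adjusted p = 0.0705). At 32 h YALI0A03135g had a difference of -1.09 ± 0.17 (SE, edgeR adjusted p = 2.61e-05) and YALI0D02695g one of -1.02 ± 0.22 (SE, edgeR adjusted p = 0.000687).

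The members were spread over the genome. By the letter in their tags, chromosomes A to F held 5, 6, 7, 8, 8 and 6 of them, with 10.7, 14.7, 14.5, 17.1, 22.7 and 20.4% of all coding genes. No member was next to another in tag order, and the closest, YALI0E09427g and YALI0E09625g, had 7 coding tags between them. The next closest were YALI0C17237g and YALI0C17567g with 8, YALI0B20526g and YALI0B20768g with 9, and YALI0A17831g and YALI0A18040g with 10.

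Most neighbours of the members did not move with them. Of the 78 adjacent coding tags none met the rule, which only 0.62% of all coding genes met, so that this count says little. The mean pH difference of the 78 had a median of 0.05, against 0.01 over all coding genes. It was 0.8 or more for 6 of the 78 (7.69%), against 3.72% of coding genes, which was not tested. The largest was YALI0E32967g with 2.36, followed by YALI0B20790g with 1.47, YALI0A03179g with 1.15, YALI0E03432g with 0.94, YALI0E00330g with 0.92 and YALI0E00286g with 0.81. YALI0E00330g and YALI0E00286g flank the same member, YALI0E00308g. Members had a median coding length of 1038 bases, from 216 to 2847, against 1245 bases over all coding genes.

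RIM101 (YALI0B13640g), the factor of the pH pathway, is not a member and went the other way. In DSM-21175 it had 54.7, 57.9 and 40.1 FPKM at pH 3.5, against 135, 112 and 164 FPKM at pH 5.5, on glycerol. On glucose DSM-21175 had 53.2, 53.2 and 49.6 FPKM at pH 3.5, against 132, 136 and 158 FPKM at pH 5.5. DSM-3286 had 47.5, 41.5 and 44.6 FPKM at pH 3.5, against 339, 337 and 346 FPKM at pH 5.5, on glycerol. Its glucose cultures had 71, 67.1 and 59.5 FPKM at pH 3.5, against 359 and 356 FPKM at pH 5.5. No library overlapped between the pH values. The log2 differences were -1.41 and -1.43 in DSM-21175 on glycerol and on glucose, and -2.91 and -2.42 in DSM-3286. In the count model the log2 fold change over the 4 pairs was -2.06 ± 0.06 (SE, edgeR adjusted p = 1.01e-20), in a comparison where 34.3% of genes were called lower. In growth RIM101 had 27.8 to 134 FPKM (median 65.96). The list of ambient pH genes held 1 more, YALI0B05654g, which the files do not name. Its log2 differences were -0.71 and -0.48 in DSM-21175 on glycerol and on glucose, and -3.61 and -2.05 in DSM-3286, and it fell by -1.87 ± 0.10 over the 4 pairs (SE, edgeR adjusted p = 2.24e-15).

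Of 71 genes that the files name by a regulator's symbol, none met the rule. Only 0.62% of all coding genes did, so that a list of this size says little about regulators. Of these 71, 8 were higher at pH 3.5 in all 4 pairs, by 0.32 or less in the weakest pair. The share of all coding genes that were higher in all 4 pairs by any amount was not counted. YAS1, a factor of the alkane response in this yeast, came closest, with 0.85 and 0.32 in DSM-21175 on glycerol and on glucose, and 2.74 and 0.82 in DSM-3286 on glycerol and on glucose.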

How the data were processed

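RNA was measured by sequencing of poly(A) RNA in strand-specific libraries, per the labels' protocols. The authors deposited a table of raw read counts per gene and a table of log2 values, which equalled log2(FPKM + 1) as recalculated from the counts within 0.02 for 99.9% of values. Per the submitters' processing notes, BWA 0.7.12-r1039, featureCounts 1.5.1 and edgeR were used, with no roles stated; the sources used here give neither genome build nor strand setting, and reads shared by overlapping or near-identical genes were not examined. The count table held 7132 genes (6448 coding, 639 noncoding, 45 mitochondrial). All columns were assigned by name; the header of the log2 table has 1 extra empty cell, and its alignment was checked against the counts. The log2 table gives 71 genes by symbol only, which were paired with locus tags by equal values over all libraries (largest difference 0.0051, against 0.65 or more for the next best gene).

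The members and lists were chosen with earlier results of these data known, as were the 5 libraries set apart. The rule was applied to group means of the deposited log2 values, and 1 member is not reported here. Named members are the 12 with the largest mean pH difference, the 6 most abundant at pH 3.5, those nearest to the threshold, those with the smallest and largest spread, and up to 4 called each way per comparison; the rest were named for their growth level or overlap after their values were seen.

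Counts were fitted in R 4.3.3 with edgeR 4.0.16 (filterByExpr, TMM, quasi-likelihood with robust estimation, 1 coefficient per group, 23 residual degrees of freedom, biological coefficient of variation 14.8%). In simulated data for the growth carbon comparison, run on 6537 genes, 95 of 100 genes changed 2-fold and 97 of 100 changed 4-fold were called, with 6 false calls. Recovery of members with few reads was not counted apart. Alternatives were DESeq2 1.42.0, limma 3.58.1 on the deposited log2 values, RLE scaling, no filter, a replicate block, the 5 libraries left out and each library left out. The 34 replicate pairs differed by more than sampling noise (lowest chi-square per gene 3.4). Standard errors are those of the edgeR fit and include the spread between replicates. GeneIDs of 38 members matched RefSeq, whose table gave no symbols; product names and sequences were not used here.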

Additional observations from a re-analysis of the deposited data

Results flagged for a closer look

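In 5 of the members whose change with carbon source is given above over both strains, that change differed between the strains by a test of the difference itself, an interaction term chosen after seeing the data (DSM-21175 minus DSM-3286, edgeR, adjusted over 6537 genes). In growth this was so for YALI0D19338g, with a difference of 3.08 ± 0.77 (SE, edgeR adjusted p = 0.00932), and for YALI0D25806g, with 1.69 ± 0.41 (SE, edgeR adjusted p = 0.00771). At 32 h it was so for YALI0F23353g, with -2.31 ± 0.61 (SE, edgeR adjusted p = 0.00586), for YALI0E03476g, with -0.66 ± 0.24 (SE, edgeR adjusted p = 0.0334), and for YALI0B07898g, with -1.48 ± 0.54 (SE, edgeR adjusted p = 0.0376).

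For YALI0D25806g the log2 fold change, glycerol over glucose, was 1.74 ± 0.31 in DSM-21175 and 0.05 ± 0.28 in DSM-3286 (SE). For YALI0F23353g at 32 h and pH 5.5 it was -4.24 ± 0.81 in DSM-21175 and 0.21 ± 0.49 in DSM-3286 (SE). DSM-21175 then had 0.474, 0.464 and 0.0570 FPKM on glycerol and 1.43, 1.58 and 15.9 FPKM on glucose, where the third library of each is among those set apart. At pH 3.5 the strains were alike, with -1.83 ± 0.54 in DSM-21175 and -1.66 ± 0.43 in DSM-3286 (SE). YALI0B07898g was also alike at pH 3.5, with 2.51 ± 0.42 in DSM-21175 and 2.41 ± 0.39 in DSM-3286 (SE). At pH 5.5 it had 1.10 ± 0.70 in DSM-21175, on few reads, and 4.15 ± 0.55 in DSM-3286 (SE). YALI0E03476g fell more in DSM-21175 at both pH values.

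Without the 5 libraries set apart the difference was -0.95 for YALI0F23353g (edgeR adjusted p = 0.0132), and without replicate 3 of DSM-21175 on glucose at pH 5.5 alone it was -1.28; both passed, but it did not pass with limma on the log2 values (adjusted p = 0.0877). Those of YALI0E03476g and YALI0B07898g lost their call when single libraries were left out, in 8 and 12 of 23 cases, and were -0.97 (edgeR adjusted p = 2.29e-07) and -1.83 (edgeR adjusted p = 0.0234) without the 5.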

How the results depend on the processing

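No result named here reversed under any alternative run. With 0.6 in place of 0.8 as the threshold the rule found 75 genes, with 1 it found 29, and from log2 CPM 52, which held all 40 members. Leaving out each library in turn gave 38 to 44 members, and without DSM-21175 glucose pH 5.5 replicate 3 it gave 41, of which 36 were shared. Counts of members called, each library left out, were 3 to 3 higher and 21 to 26 lower for carbon source in growth, 10 to 12 and 13 to 18 for strain in growth, 11 to 14 and 7 to 9 for carbon source at 32 h, and 4 to 5 and 26 to 29 for strain at 32 h. Under the other alternatives each of these counts stayed within 1.5 times its main value. For the interaction the counts, each library left out, were 4 to 6 positive and 0 to 4 negative in growth and 1 to 2 positive and 6 to 12 negative at 32 h. Without the 5 libraries set apart they were 8 positive and 5 negative in growth and 3 positive at 32 h, and 1 was negative in growth with only the libraries compared. Of the named genes, YALI0C16522g in growth between strains lost its call in 4 alternatives and YALI0E32901g in 1, and RIM101 at 32 h between carbon sources in 9. Of the interactions, YALI0E03476g lost its call in 8, YALI0B07898g in 13, and YALI0F23353g and YALI0A13497g in 1 each; the cause was not tested.

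With the replicate number as a block, 3 and 23 members were called higher and lower for carbon source in growth, 12 and 15 for strain in growth, 14 and 8 for carbon source at 32 h, and 4 and 26 for strain at 32 h; the block changed no call of a named gene. Deviations of libraries with the same number correlated with a median of 0.002 (-0.59 to 0.48 over 187 pairs), against a median of -0.0025 for libraries with other numbers. Positive and negative correlations can cancel in such a median, so it cannot show whether some libraries shared a run. Most of the 5 libraries set apart are replicate 3. Low reads limit YALI0C16522g and YALI0B07898g in growth.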
